A study of Mus musculus with 23 samples.

Results

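The 44 genes described here encode proteins that copy DNA and that carry cells through mitosis, and their signals were followed across 23 murine pancreatic ductal adenocarcinoma (PDAC) cell lines. The genes were taken from a list of symbols, 26 for mitosis and 18 for replication. Of the regulators of mitotic genes named below, Mybl2 was counted with the replication genes and Foxm1 with the mitosis genes. A gene was counted as measured when a probe set of the array was annotated with its symbol only, and the probe set with the highest mean over the lines stood for the gene. This gave 43 of the 44 listed genes, out of 18193 genes with such a probe set. Ccnb1 was not analysed here, since no probe set met this rule. All cultures were untreated tumour cells of low passage, with 1 Affymetrix Mouse Genome 430 2.0 array per line. Values are log2 signals, so that differences between them are log2 ratios.

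The line names gave the only grouping in the labels. In 11 lines the name starts with B, LN1, PUL, PUL3, HEP, HEP2 or ASC, and these are called non-PPT lines, while 12 lines start with PPT. The prefixes are not spelled out in the labels. The number in the name marks the mouse: 23 lines came from 14 mice, and 5 mice gave 14 of the lines, so that lines of 1 mouse are not independent. Per the study's list of genotypes, given for 13 of the lines used here, all 13 carried Ptf1a-Cre or Pdx1-Cre, which act in the pancreas. In that list 6 lines carried an activatable p53 R172H allele, listed as R172H/+ in all 6. A firefly luciferase (fLuc) reporter at the Pcna locus, ATG-fLuc or IRES-fLuc, is listed for 4 lines. A Tva-lacZ allele is listed for PPT-3250, PPT-5671, PPT-16992, PPT-17728 and ASC-53909. The genotype was not listed for the other 10 lines. Each line is 1 culture with 1 array, so p-values measure the spread between lines.

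In a dividing cell, E2F transcription factors switch on replication genes when the retinoblastoma family of repressors is inactivated, and the products load and start the replication machinery. Mitotic genes follow later in the cycle under B-Myb (Mybl2) and Foxm1, and their products build the spindle, attach chromosomes to it and separate them. Because transcripts of both groups rise and fall with the cycle, their joint level in a culture is widely read as a measure of proliferation. The p53 target Cdkn1a (p21), an inhibitor of cyclin-dependent kinases, acts in the opposite direction and served as an outside comparator. In cell cultures a smaller share of cycling cells and less RNA per cycling cell cannot be told apart.

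Promoter sequences of the genes are shown because many of the genes moved together across the lines. The RefSeq table (GRCm38.p6) matched 36 of the 44 genes, with 38 promoters. It held no entry for Aurkb, Tpx2, Gins1, Cdc25c, Ccna2, Foxm1, Kif20a and Mcm4. The 250 bases before the transcription start were searched on both strands for the letters of the E2F element (TTTCCCGC, TTCCCGCC or TTTGGCGC), of the cell cycle homology region, CHR (TTTGAA or TTCGAA), and of the CCAAT box (CCAAT), with overlapping matches counted separately. Below are the 3 mitosis genes whose signals followed the other genes most closely among those with a promoter in the table (Birc5, Plk1 and Ttk), Top2a and Cdk1, which had the most CHR matches (Mki67 had as many as Cdk1), the 2 replication genes that followed the others most closely among those with an E2F match (Rrm1 and Mcm5), and Cdt1, which followed them least. Capitals mark the matched letters, and each sequence runs 5′ to 3′ on the strand of the gene.
Birc5 chr11:117848987-117849236 (plus strand): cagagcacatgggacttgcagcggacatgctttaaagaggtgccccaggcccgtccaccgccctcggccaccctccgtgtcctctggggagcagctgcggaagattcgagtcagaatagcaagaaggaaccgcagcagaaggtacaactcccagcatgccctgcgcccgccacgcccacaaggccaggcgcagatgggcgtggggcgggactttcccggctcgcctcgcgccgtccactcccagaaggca
Plk1 chr7:122159185-122159434 (plus strand): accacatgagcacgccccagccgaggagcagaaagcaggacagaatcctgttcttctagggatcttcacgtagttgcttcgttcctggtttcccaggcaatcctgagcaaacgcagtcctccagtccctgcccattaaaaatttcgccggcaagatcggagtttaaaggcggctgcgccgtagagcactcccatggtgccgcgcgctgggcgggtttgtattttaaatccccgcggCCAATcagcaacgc
Ttk chr9:83834439-83834688 (plus strand): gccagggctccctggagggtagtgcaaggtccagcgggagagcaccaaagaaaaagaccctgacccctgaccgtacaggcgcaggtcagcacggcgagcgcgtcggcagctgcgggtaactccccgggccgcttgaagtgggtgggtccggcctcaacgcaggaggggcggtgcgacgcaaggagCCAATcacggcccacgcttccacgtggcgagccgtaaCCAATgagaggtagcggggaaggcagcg
Top2a chr11:99024190-99024439 (minus strand): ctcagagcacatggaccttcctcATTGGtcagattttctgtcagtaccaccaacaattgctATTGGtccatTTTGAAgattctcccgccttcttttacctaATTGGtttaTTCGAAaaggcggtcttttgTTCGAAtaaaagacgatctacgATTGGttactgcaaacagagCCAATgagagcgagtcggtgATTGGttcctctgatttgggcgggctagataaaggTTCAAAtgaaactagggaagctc
Cdk1 chr10:69352913-69353162 (minus strand): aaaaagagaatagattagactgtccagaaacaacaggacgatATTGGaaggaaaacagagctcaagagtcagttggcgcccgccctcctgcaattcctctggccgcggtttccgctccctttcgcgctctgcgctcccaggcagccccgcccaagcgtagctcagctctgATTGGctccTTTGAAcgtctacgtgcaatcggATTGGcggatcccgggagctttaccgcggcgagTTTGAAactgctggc
Rrm1 chr7:102441445-102441694 (plus strand): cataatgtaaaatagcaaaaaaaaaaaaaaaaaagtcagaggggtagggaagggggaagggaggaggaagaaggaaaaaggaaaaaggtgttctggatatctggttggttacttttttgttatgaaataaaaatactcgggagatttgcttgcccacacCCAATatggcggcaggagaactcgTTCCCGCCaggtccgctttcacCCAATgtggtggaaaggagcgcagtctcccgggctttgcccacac
Mcm5 chr8:75109259-75109508 (plus strand): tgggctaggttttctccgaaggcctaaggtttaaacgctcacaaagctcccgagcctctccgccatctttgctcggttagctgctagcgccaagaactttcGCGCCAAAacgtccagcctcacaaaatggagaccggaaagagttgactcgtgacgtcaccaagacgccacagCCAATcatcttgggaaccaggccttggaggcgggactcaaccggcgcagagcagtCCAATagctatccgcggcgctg
Cdt1 chr8:122567765-122568014 (plus strand): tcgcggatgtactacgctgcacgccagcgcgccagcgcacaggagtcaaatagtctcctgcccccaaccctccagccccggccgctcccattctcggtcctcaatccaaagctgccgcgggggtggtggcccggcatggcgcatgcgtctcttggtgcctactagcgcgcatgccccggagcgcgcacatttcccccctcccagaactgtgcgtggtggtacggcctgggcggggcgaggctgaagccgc

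A CCAAT box was matched in 17 of the 20 mitosis promoters (85%) and in 12 of the 18 replication promoters (66.7%), against 33.8% of all 32851 promoters in the table. CHR letters were matched in 8 of 20 mitosis promoters (40%) and 3 of 18 replication promoters (16.7%), against 17.1% of all promoters. E2F letters were matched in 0 of 20 mitosis promoters and 5 of 18 replication promoters (27.8%), against 2.69% of all. The E2F matches lay in Rrm1, Mcm5, Cdc6, Mcm6 and Mcm7. The promoter of Top2a held 6 CCAAT boxes and 4 CHR matches, the last of them 23 to 18 bases before the start, and Cdk1 held 3 and 2. Birc5 and Cdt1 had no match of any kind in this window. A match describes letters only, and binding was not measured.

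The level of the 43 genes differed widely between lines. For each gene the mean over the 23 lines was subtracted, and the deviations were averaged over the genes of a line. This mean ran from -1.29 in PPT-5748 to 0.67 in ASC-53909, a span of 1.96 on the log2 scale or 3.89-fold. In PPT-5748 all 43 genes lay below their mean, and 35 of them had their lowest signal of the 23 lines there. PPT-5671 was next, at -0.89, again with all 43 genes below their mean. At the other end, all 43 genes lay above their mean in PPT-16992 (0.60) and in ASC-53909, and these lines held the highest signal of 8 genes (PPT-16992) and 13 genes (ASC-53909). The other 19 lines lay between -0.51 (B-6051) and 0.38 (LN1-15272). The median signal of the whole array was 3.83 in PPT-5748 and 3.89 in PPT-5671, against 3.58 to 3.89 over the 23 arrays. PPT-5748 and PPT-5671 stood apart at the low end. Several results that rest on them are given with and without them, and others with all lines only.

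**Figure D1:**
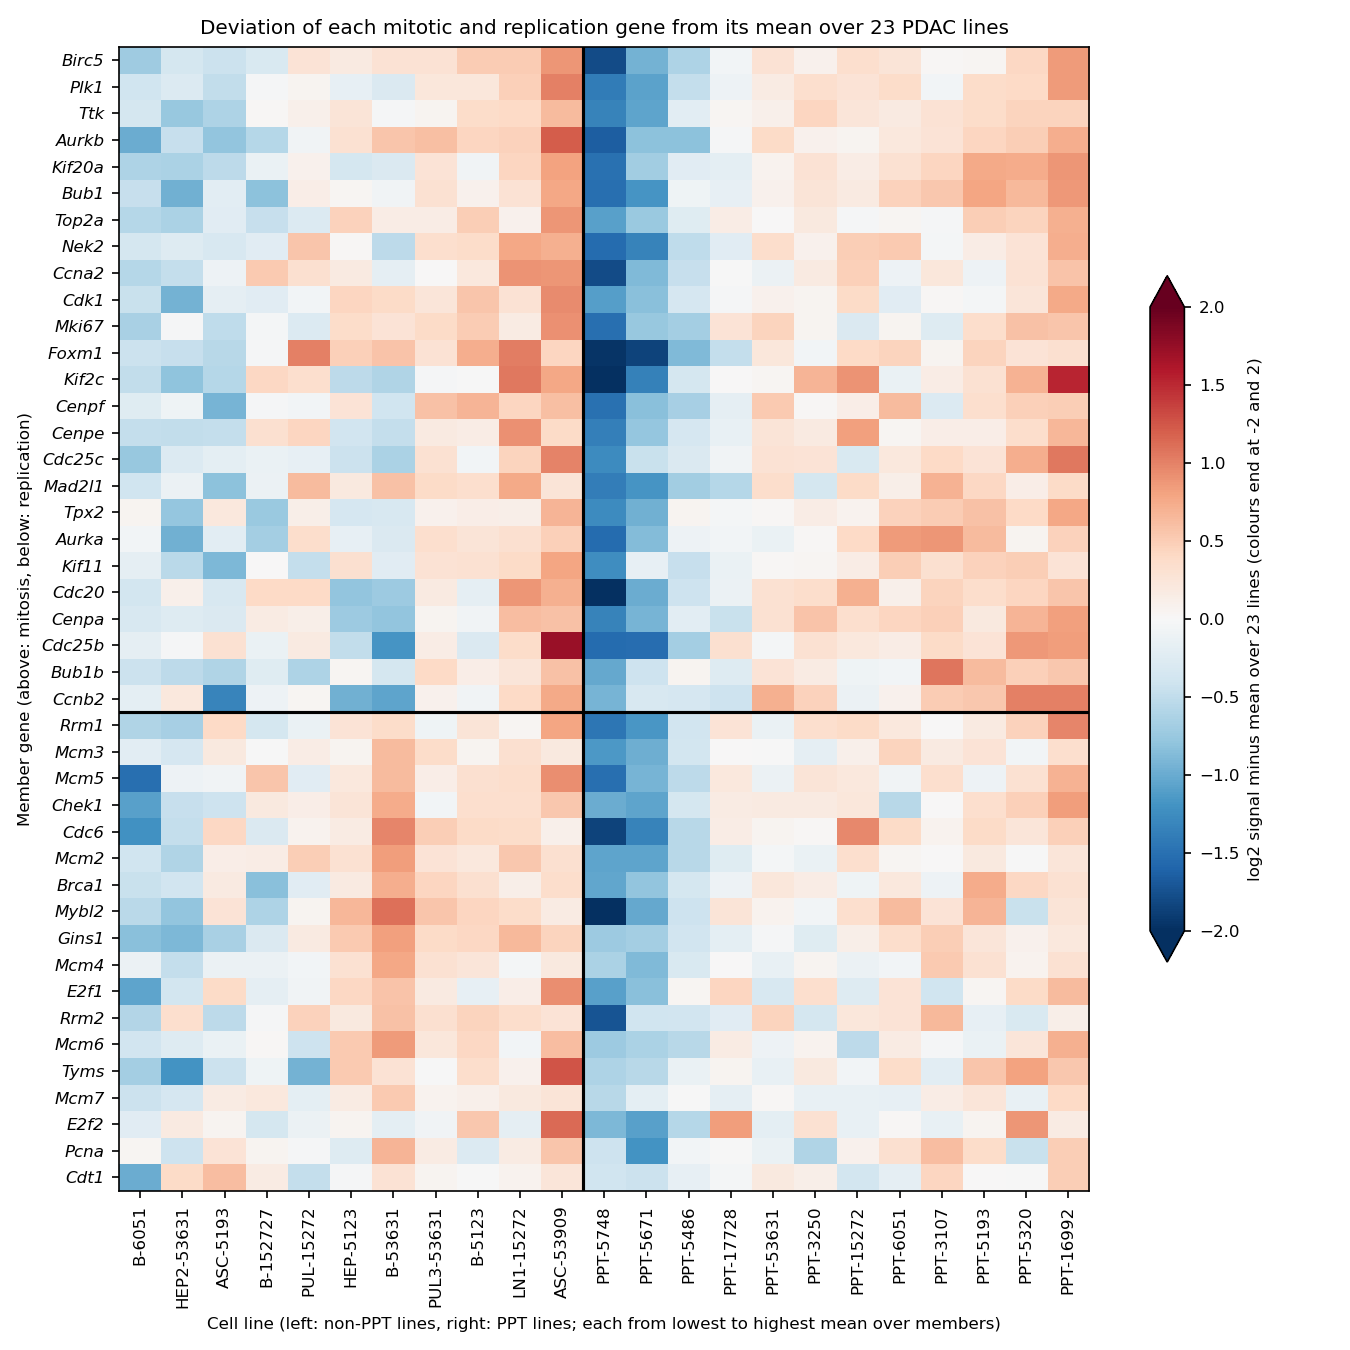
Deviation of the log2 signal of each of the 43 genes (rows; mitosis genes above the horizontal line, replication genes below it) from its mean over the 23 lines (columns; 11 non-PPT lines left of the vertical line, 12 PPT lines right of it). Blue is below and red above the mean of the gene; the columns of PPT-5748 and PPT-5671 are blue in all 43 rows, and those of ASC-53909 and PPT-16992 red in all 43.

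Among regulators of mitotic entry, Cdk1, the kinase that drives it, ranged from 9.59 in PPT-5748 to 11.64 in ASC-53909 with a median of 10.72. Ccna2, the cyclin that partners Cdk1 and Cdk2, ranged from 8.34 in PPT-5748 to 11.02 in LN1-15272 (median 10.13). Cdc25b, a phosphatase that activates Cdk1, had a wide range, from 5.92 in PPT-5748 and 5.94 in PPT-5671 to 9.19 in ASC-53909 (median 7.62). For Cdc25b the next line below ASC-53909 was PPT-5320 at 8.33. Foxm1, the transcription factor of mitotic genes, had 4.84 and 4.95 in PPT-5748 and PPT-5671, a median of 7.07 and a highest signal of 7.82 in LN1-15272. All 4 genes were lowest in PPT-5748, and PPT-5671 came next for all but Cdk1, for which it followed HEP2-53631 (9.74).

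The mitotic kinases and the proteins that act with them were also lowest in PPT-5748. Plk1, which acts in spindle assembly and chromosome separation, had 7.02 in PPT-5748, 7.35 in PPT-5671, a median of 8.47 and 9.43 in ASC-53909. Aurkb, the kinase of the chromosomal passenger complex, ranged from 6.54 in PPT-5748 to 9.40 in ASC-53909 (median 8.41), and Birc5 (survivin), a subunit of the same complex, ranged from 8.72 to 11.39 in the same lines (median 10.69). The spindle checkpoint kinases Bub1 (7.80 to 10.18, median 9.40) and Ttk (6.58 to 8.55, median 8.02) followed the same pattern. Of the kinesins, Kif2c, which removes tubulin from microtubule ends, had the largest range of all 43 genes, from 6.77 in PPT-5748 to 10.30 in PPT-16992, an 11.6-fold difference, although its other probe sets did not all follow it. Of the 29 genes with another probe set brighter than the median, 6 (Bub1, Cenpa, Cenpf, Kif2c, Tpx2 and E2f1) had one with an r under 0.5 to the probe set used here. The proliferation marker Mki67 ranged from 8.83 in PPT-5748 to 11.24 in ASC-53909 (median 10.39).

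Ccnb2, a B-type cyclin, was the exception among the mitosis genes. Its lowest signal was 8.26 in ASC-5193, followed by 8.54 in B-53631, 8.62 in HEP-5123 and 8.65 in PPT-5748, and its highest was 10.60 in PPT-5320. The mean over the 25 measured mitosis genes was -0.44 in ASC-5193, -0.22 in B-53631 and -0.07 in HEP-5123, all well above the -1.46 of PPT-5748.

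Among the replication genes, the helicase subunit Mcm7 ranged only from 11.12 in PPT-5748 to 12.20 in B-53631 (median 11.70), a 2.11-fold difference and the smallest of the 43 genes. The other helicase subunits spanned 2.99-fold (Mcm6) to 5.39-fold (Mcm5). Cdc6, which loads the helicase onto origins, ranged from 5.76 in PPT-5748 to 8.59 in B-53631 (median 7.76), and Rrm1, a subunit of ribonucleotide reductase, from 8.50 to 10.92 (median 10.12), lowest in PPT-5748 and highest in PPT-16992. Mybl2 ranged from 4.61 in PPT-5748 to 7.97 in B-53631 (median 7.12), a 10.3-fold difference. Tyms, thymidylate synthase, was measured close to the dim end of the array, with a mean of 4.09 against a median of 3.805 over all probe sets, and a brighter probe set shared with a pseudogene (mean 9.72) was not used. Over the 43 genes the standard deviation across lines ran from 0.26 (Mcm7) to 0.80 (Kif2c) with a median of 0.55, against a median of 0.28 over all probe sets and 0.39 over those brighter than the median.

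Cdt1, which licenses origins, and Pcna, the sliding clamp of DNA polymerase, kept a pattern of their own. Cdt1 was lowest in B-6051 (9.31) and highest in ASC-5193 (10.92), with 9.91 in PPT-5748. Pcna was lowest in PPT-5671 (10.74) and highest in B-53631 (12.62). The lines with a listed fLuc reporter allele at Pcna had 11.34 (PPT-3250), 11.49 (PPT-5320), 11.88 (PPT-5486) and 10.74 (PPT-5671), and PPT-5748, with no such allele listed, had 11.53. The allele is listed as ATG-fLuc in PPT-3250 and PPT-5671 and as IRES-fLuc in PPT-5320 and PPT-5486. PPT-5671, PPT-3250 and PPT-5320 thus held the 3 lowest Pcna signals of the 23 lines. PPT-5320 took place 20 from the lowest of the 23 lines in the mean over all 43 genes (0.35), although its Pcna signal was among the lowest. No comparison was made by these alleles, since the labels do not give them.

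Across the 23 lines the genes varied together. All 903 pairs of genes had a Pearson r above 0, with a median of 0.68. The median r was 0.76 over the 300 pairs of mitosis genes, 0.67 over the 153 pairs of replication genes and 0.61 over the 450 pairs of 1 mitosis and 1 replication gene. The first principal component held 69.1% of the variance of the 43 genes, a share given with all lines only. These correlations describe 23 lines from 14 mice and carry no p-value. Without PPT-5748 and PPT-5671 the median r over all pairs was 0.49, and over 1 mean per mouse it was 0.80.

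Each gene was also set against the mean of the other 42. The r was 0.97 for Birc5, 0.95 for Plk1, 0.94 for Ttk, 0.93 for Aurkb, 0.92 for Kif20a and 0.91 for Bub1, and the closest replication gene was Rrm1 (0.89). It exceeded 0.8 for 26 of the 43 genes, whereas 0.997% of the 18150 other genes had an r above 0.8 with the mean of the 43. These r and counts are given with all lines only, PPT-5748 and PPT-5671 included. The lowest values were 0.44 for Cdt1 and 0.57 for both Ccnb2 and Pcna. The 43 genes hold more mitosis genes (25) than replication genes (18), so the order of the groups depends in part on this mean. Against the mean of the replication genes, r was 0.90 for Birc5 and also 0.90 for Rrm1, Cdc6 and Mcm3. The closest pair was Cenpe, a kinetochore motor, and Kif2c (r = 0.95), and the least related was Ccnb2 and Pcna (r = 0.09).

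**Figure D2:**
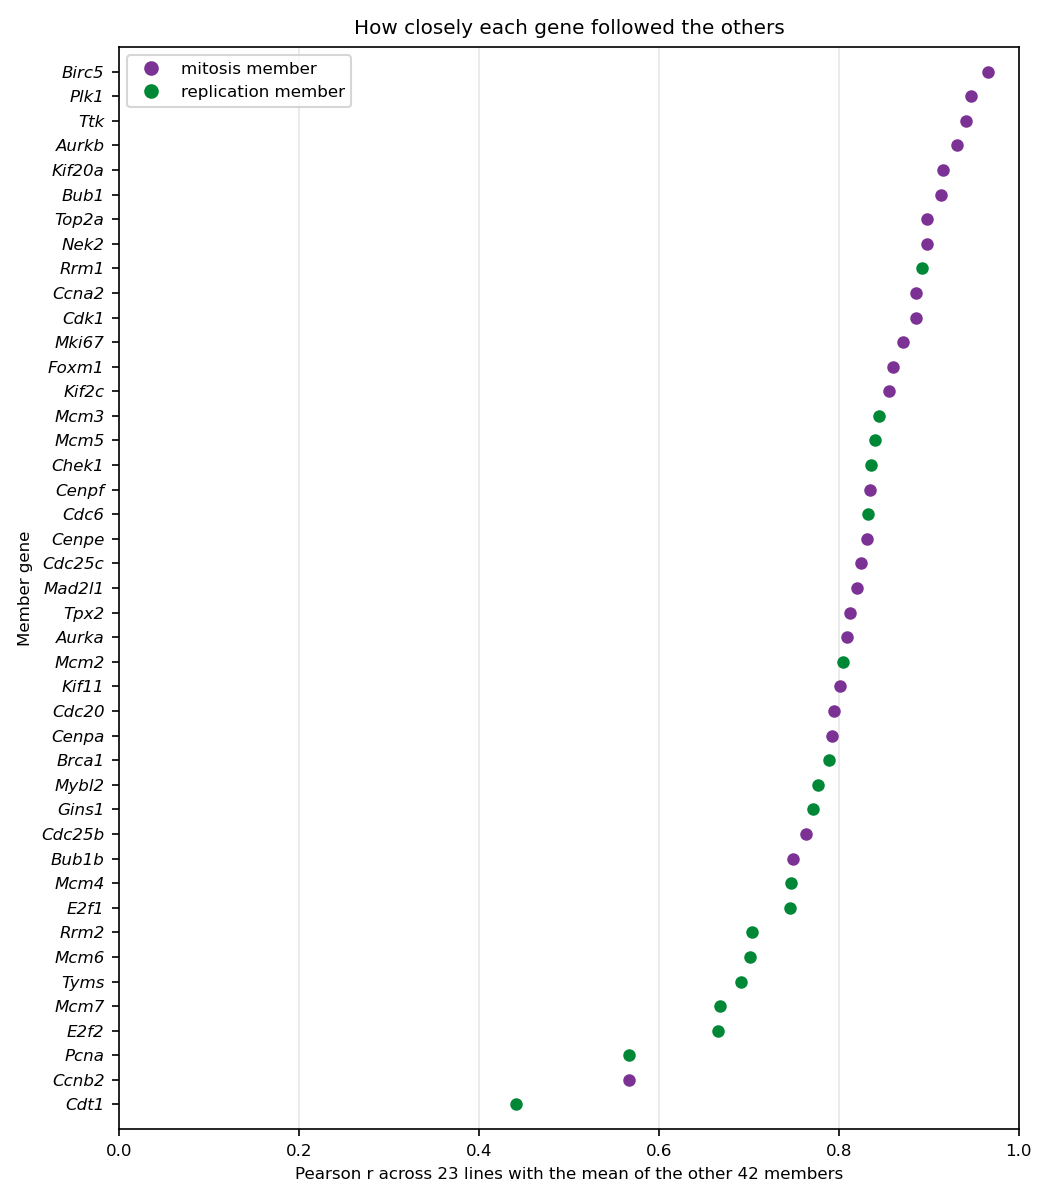
Pearson r across the 23 lines of each gene (rows, sorted) with the mean deviation of the other 42 genes. Mitosis genes hold the 8 highest places from Birc5 (0.97) downwards, and Cdt1 (0.44) is the lowest. The mean holds more mitosis than replication genes, which favours mitosis genes in this order.

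Mitosis and replication genes did not move in step in every line. The mean over the 25 mitosis genes and that over the 18 replication genes had r = 0.83 and Spearman's rho = 0.70 over 23 lines, and r = 0.64 and rho = 0.61 without PPT-5748 and PPT-5671. The largest gap was in B-53631, with a replication mean of 0.62 and a mitosis mean of -0.22. This line held the highest signal of 9 genes, namely Mcm2, Mcm3, Mcm4, Mcm6, Mcm7, Pcna, Cdc6, Gins1 and Mybl2, and at the same time the second lowest of Ccnb2. ASC-5193 had a replication mean of 0.04 and a mitosis mean of -0.44, and HEP-5123 had 0.25 and -0.07. In the other direction, PPT-5320 had a replication mean of 0.16 and a mitosis mean of 0.48, and LN1-15272 had 0.21 and 0.51.

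**Figure D3:**
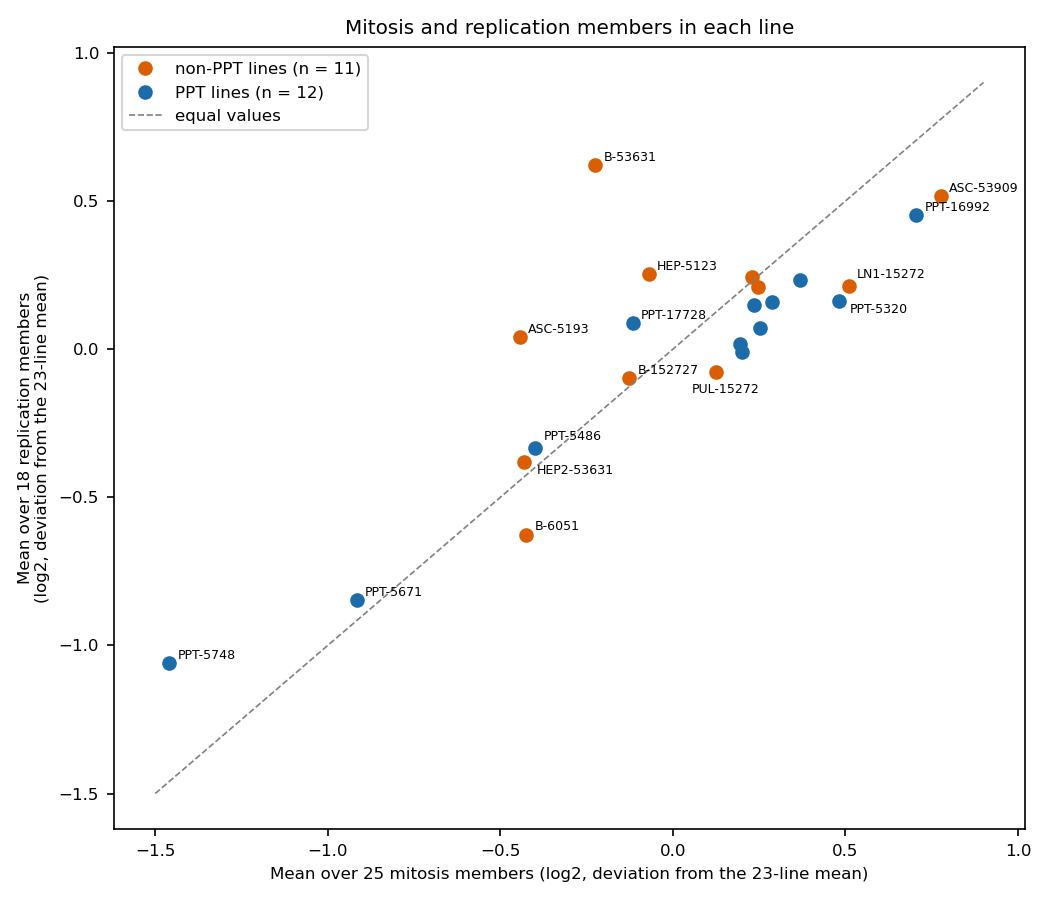
Mean deviation of the 18 replication genes (vertical axis, log2) against that of the 25 mitosis genes (horizontal axis, log2), 1 point per line, non-PPT lines in orange and PPT lines in blue, with the dashed line where both are equal. B-53631 lies farthest above the dashed line, with 0.62 for replication and -0.22 for mitosis.

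Other genes of the same processes were read from lists that do not overlap with the 43. Of 22 further mitosis genes, 20 had an r above 0.5 with the mean of the 43 genes, with a median of 0.86, against 8.82% of all other genes above 0.5. The exceptions were Pttg1 (securin, 0.10) and Cdc25a (0.07). All 22 measured further replication genes of 24 listed had an r above 0.5 (median 0.77). Among repressors and pocket proteins, E2f7 (0.84), E2f8 (0.85) and the DNA-binding subunit of the MuvB complex Lin54 (0.86) followed the mean. The pocket protein Rbl2 (-0.08) did not. Of the 11 genes on this list 6 had an r above 0.5, and the lowest r was that of Lin52 (-0.35). The cyclins of the growth phase before replication differed among themselves, with 0.71 for Ccne2, 0.68 for Ccne1, 0.56 for Ccnd1 and -0.51 for Ccnd2. Of the 6 inhibitors of cyclin-dependent kinases on the list, Cdkn2d had 0.64, Cdkn2c 0.47 and Cdkn1b (p27) 0.07, whereas Cdkn2b had -0.21, Cdkn2a -0.26 and Cdkn1c -0.38. The r of Cdkn2a spans a gap, with no signal between 3.33 (LN1-15272) and 6.30 (PPT-5748). Without PPT-5748 and PPT-5671 Cdkn1b had 0.38 and Cdkn1c -0.46. The mean of the 8 listed cyclins and kinases of that growth phase then had 0.09, against 0.41 over all lines. The means of the further mitosis and replication genes then had 0.96 and 0.85. The counts of further genes above 0.5 are given with all lines only.

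Among all other genes, those most like the mean of the 43 were Ska3, a kinetochore protein (r = 0.96), the spindle protein Tacc3 (0.96), the import receptor Kpna2 (0.96), the kinetochore protein Spdl1 (0.96), Fignl1 (0.95), the kinesin Kif22 (0.95), Shcbp1 (0.94), the kinase Melk (0.94), Eri2 (0.93) and the clamp loader subunit Rfc5 (0.93). Without PPT-5748 and PPT-5671 their r lay between 0.85 (Melk) and 0.93 (Fignl1). Those that ran opposite were Kdm7a, a histone demethylase (r = -0.86), Tcp11l2 (-0.85), Zkscan14 (-0.84), Pcmtd1 (-0.82), Crebrf (-0.82), Ilvbl (-0.81), N4bp2l1 (-0.81), Acox2 (-0.79), Kdm6b (-0.79) and Zfp30 (-0.79). All 10 had their highest signal in PPT-5748 or PPT-5671, and without these lines their r lay between -0.77 (Pcmtd1) and -0.47 (Acox2 and N4bp2l1).

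Markers of cell types were read beside the level of the 43 genes. Over 23 lines the mean of 6 epithelial markers had r = -0.01 with it, that of 5 mesenchymal markers 0.12, that of 6 fibroblast markers 0.30 and that of 5 leukocyte markers -0.07. Without PPT-5748 and PPT-5671 these were -0.06 for the epithelial, 0.20 for the mesenchymal, 0.19 for the fibroblast and -0.43 for the leukocyte markers. Of the leukocyte markers, Ptprc, Adgre1 and Itgam averaged 2.04, 2.69 and 1.84, below the median of all probe sets, while Cd3e (3.98) and Cd68 (5.13) lay above it. Of the endothelial markers, Pecam1, Cdh5 and Tek lay below the median and Kdr (4.22) above it. The epithelial keratins Krt8, Krt18 and Krt19 averaged 12.35, 12.03 and 10.96, but in ASC-5193 the mean of the 6 epithelial markers lay 6.41 below that of all lines. This mean was also low in PPT-17728 (-3.51), PPT-3250 (-2.51), ASC-53909 (-2.45), PPT-16992 (-2.24) and PPT-5320 (-1.70). It was nearer to that of all lines in PPT-5748 (-0.40) and PPT-5671 (-0.06), and above it in the remaining lines.

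Whether the genes differed by the prefix of the line name was tested with limma, with the mouse as a random block. Non-PPT lines of all prefixes were set against PPT lines, and this is called the comparison by origin below. No gene of the 43 was called at an adjusted p under 0.05, and none reached an unadjusted p under 0.05. Over all 45037 probe sets 0% were called and 3.66% had an unadjusted p under 0.05. The median difference, non-PPT minus PPT, was 0.04 over the 43 genes and 0.00 over all probe sets, with 27 genes above 0 and 16 below. The mean over the genes was 0.04 ± 0.35 in non-PPT lines (SD, n = 11) and -0.04 ± 0.55 in PPT lines (SD, n = 12), with ranges of -0.51 to 0.67 in non-PPT lines and of -1.29 to 0.60 in PPT lines.

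Of the 18 replication genes, 17 had a difference above 0, with a median of 0.13, while 10 of the 25 mitosis genes did, with a median of -0.04, against 50.8% of all probe sets above 0. The difference between these gene groups was not tested. The count of 17 was not kept in other fits. Without PPT-5748 and PPT-5671, 9 of all 43 genes had a difference above 0, and with the mouse as a fixed block 5 did. The replication genes also varied together (median pairwise r 0.67), so their signs are not independent. The smallest p was that of Mcm2, a helicase subunit, with a lowest, median and highest signal of 9.34, 10.21 and 10.77 in non-PPT lines and of 8.88, 9.91 and 10.27 in PPT lines. Its difference was 0.31 ± 0.18 (SE; limma, unadjusted p = 0.094, adjusted p = 0.9999). Ccnb2 had 8.26, 9.52 and 10.35 in non-PPT lines and 8.65, 9.86 and 10.60 in PPT lines, a difference of -0.43 ± 0.26 (SE; limma, unadjusted p = 0.108, adjusted p = 0.9999). The groups overlapped for both genes. Of 22 further replication genes 20 had a difference above 0 (median 0.14), and of 22 further mitosis genes 16 did (median 0.02), so the lower share among the 25 mitosis genes was not seen in the further list. None of these 44 genes had an unadjusted p under 0.05 from limma. Of the same 29 genes with another bright probe set, 10 (Aurkb, Brca1, Bub1, Cenpf, Gins1, Kif11, Kif2c, Nek2, Rrm1 and Tpx2) had probe sets on both sides of 0.

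**Figure D4:**
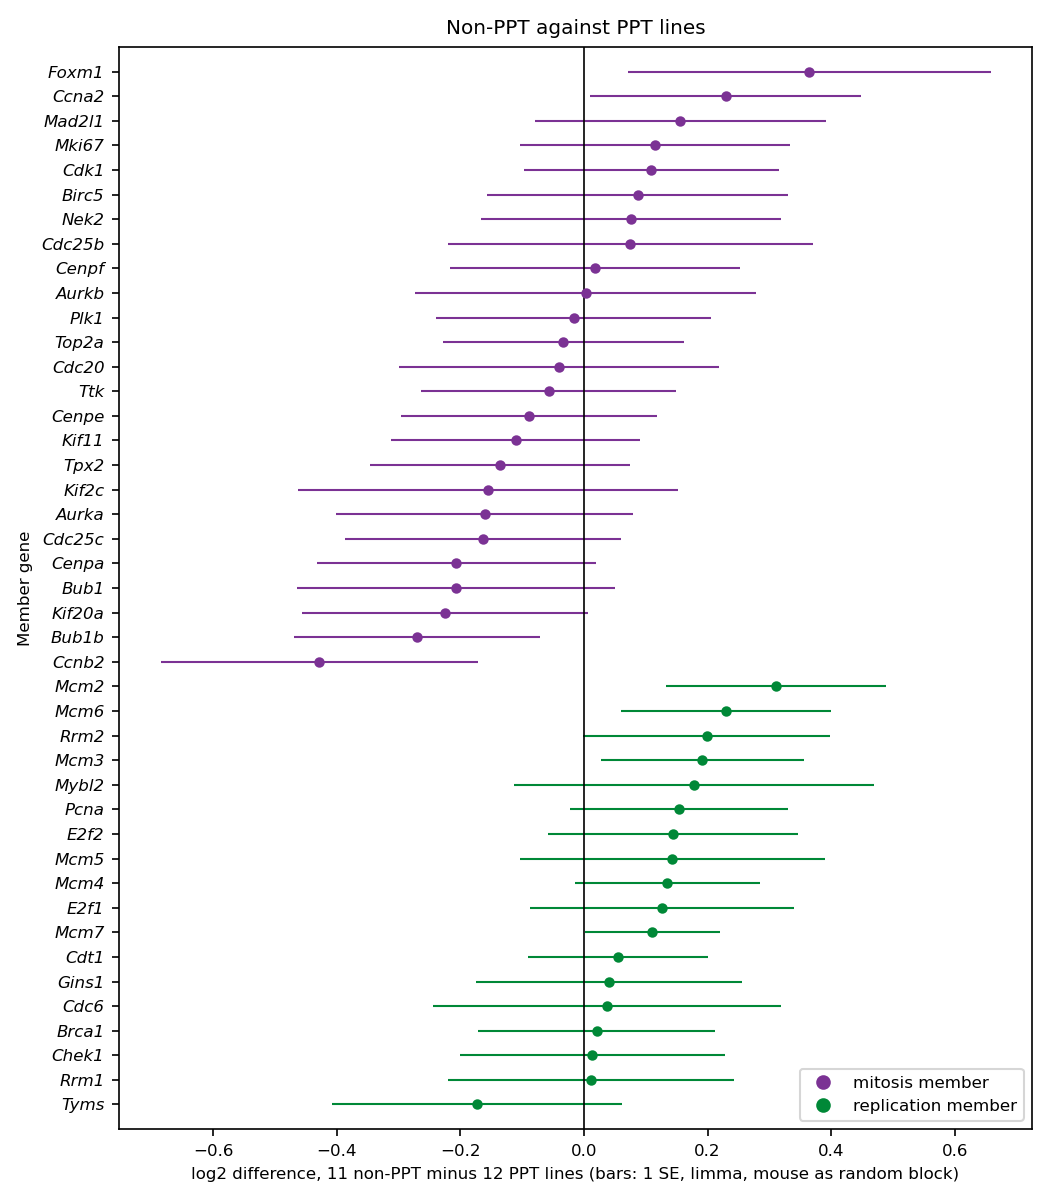
Log2 difference between the 11 non-PPT and the 12 PPT lines for each gene (points) with its standard error (bars; limma, mouse as random block), sorted within mitosis genes (above) and replication genes (below). With all lines, 17 of 18 replication genes lie right of 0, and no gene reached an unadjusted p under 0.05. Without PPT-5748 and PPT-5671 (not shown), 9 of all 43 genes had a difference above 0.

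The median lay close to 0, and its sign changed when single mice were left out. It was -0.06 without PPT-5748, -0.04 without PPT-5671, -0.02 without B-5123 and HEP-5123, -0.02 without ASC-53909 and 0.16 without B-6051 and PPT-6051. Without both PPT-5748 and PPT-5671 it was -0.15, with 6 genes at an unadjusted p under 0.05 (limma), all lower in non-PPT lines: Bub1b, Kif20a, Cenpa, Bub1, Ccnb2 and Tpx2, beside 1637 of all 45037 probe sets, and 0 genes were called. With the mouse as a fixed block, so that only the 4 mice with both kinds of line count, the median was -0.36 and 38 of 43 genes lay below 0. In that fit 8 genes, Cenpe, Plk1, Cenpf, Kif2c, Kif20a, Ttk, Cenpa and Kif11, had an unadjusted p under 0.05, with differences from -0.58 (Cenpf) to -0.43 (Ttk), and 0 of the 43 genes were called (limma, smallest adjusted p = 0.999). Over all 45037 probe sets 1872 had an unadjusted p under 0.05 in that fit.

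Within these 4 mice the lines could be set side by side. The mean over the genes was -0.51 in B-6051, against 0.20 in PPT-6051, and all 43 genes were lower in B-6051. It was -0.24 in ASC-5193, against 0.31 in PPT-5193, with 36 genes lower and 6 higher in ASC-5193. Mouse 53631 had -0.41 in HEP2-53631, 0.13 in B-53631 and 0.23 in PUL3-53631, against 0.11 in PPT-53631. Mouse 15272 had -0.11 in B-152727, 0.04 in PUL-15272 and 0.38 in LN1-15272, against 0.18 in PPT-15272. Of the 8 non-PPT lines, 5 thus lay below and 3 above the PPT line of their mouse.

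The 2 pairs with the largest differences had their largest gene differences at different genes. B-6051 fell furthest below PPT-6051 in Cdc6, with a difference of -1.60 and a signal of 6.40 in B-6051, and its smallest difference was -0.07 for Mcm4. ASC-5193 fell furthest below PPT-5193 in Ccnb2, with 8.26 in ASC-5193, against 10.13 in PPT-5193, whereas Cdt1 had 10.92 in ASC-5193, against 10.31 in PPT-5193. Over all probe sets the deviations of ASC-5193 and PPT-5193 had r = -0.15, and those of B-152727 with the 3 lines numbered 15272 had r between 0.03 and 0.25, against a median of 0.42 over all 15 pairs of lines from 1 mouse. The number 15272 was read from the name B-152727.

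Whether lines of 1 mouse were more alike than lines of different mice was asked over the 14 lines of the 5 mice with several lines, with limma's moderated F-test. None of the 43 genes was called at an adjusted p under 0.05, against 2.94% of all probe sets, and 7 genes had an unadjusted p under 0.05, against 19.2% of all probe sets. The mean over the genes had a pooled SD of 0.30 between lines of 1 mouse and an SD of 0.12 between the means of the 5 mice. The smallest p was that of Ccna2 (unadjusted p = 0.00165, adjusted p = 0.053). Ccna2 had 11.02, 10.65, 10.60 and 10.45 in the lines of mouse 15272, 10.34 and 10.30 in B-5123 and HEP-5123, 10.02 and 10.03 in ASC-5193 and PPT-5193, 10.13, 10.01, 9.95 and 9.65 in the lines of mouse 53631, and 9.56 and 10.02 in B-6051 and PPT-6051. The 4 lines of mouse 15272 were above the other 10. The other 6 genes were Kif2c, Rrm2, Chek1, Cenpe, Cdc20 and Cdt1, with adjusted p between 0.15 (Kif2c) and 0.24 (Cdt1). The Ccna2 value rested on mouse 15272, without whose 4 lines its unadjusted p was 0.130 and its adjusted p 0.404. In that fit 2 of the 43 genes had an unadjusted p under 0.05 from the F-test, against 8230 of all 45037 probe sets. Over the 5 mice left out in turn the adjusted p of Ccna2 ran from 0.049 (without ASC-5193 and PPT-5193, the only case with a called gene) to 0.404. Without that pair 1392 of all probe sets were called.

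Cdkn1a, the outside comparator, fell into 2 sets of lines. In 5 lines its signal was 6.20 (PPT-5193), 6.71 (PPT-3107), 6.98 (PPT-6051), 7.38 (B-6051) and 7.45 (PPT-5486), and after a gap of 1.34 the other 18 lines lay between 8.79 (PPT-5320) and 11.39 (PPT-15272). The 43 genes averaged 0.31, 0.23, 0.20, -0.51 and -0.37 in the 5 lines, in that order, and between -1.29 and 0.67 in the 18 lines. The 5 lines with the lower Cdkn1a signals lay on both sides of 0. PPT-5748, the lowest line for the 43 genes, had a Cdkn1a signal of 9.09, and PPT-5671 had 10.95. A correlation with Cdkn1a is given within the 18 lines only, because of the gap. Within the 18 lines (11 mice) the mean over the 43 genes had r = 0.07 and rho = 0.01 with Cdkn1a, r = 0.17 without the 2 lines farthest from the median of Cdkn1a (PPT-15272 and PPT-5320), r = -0.04 over 1 mean per mouse, and r = -0.11 without PPT-5748 and PPT-5671. In all, 30 such relations with Cdkn1a or the p53 targets were computed, as descriptions.

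In limma's fit of a slope per unit of log2 Cdkn1a signal over the 23 lines, which takes in both sides of the gap, 0 of the 43 genes were called and 0 had an unadjusted p under 0.05, against 0.0377% and 6.89% of the 45035 probe sets. The median slope was 0.00, and 20 genes had a slope above 0. The smallest p was that of Bub1b, a checkpoint kinase (slope -0.14 ± 0.07 (SE), unadjusted p = 0.074, adjusted p = 0.76). In the same fit Mdm2, Ccng1 and Zmat3, which are p53 targets, were called with slopes of 0.42, 0.59 and 0.49 and adjusted p from 0.00316 to 0.00539. Within the 18 lines above the gap 0 of the 45035 probe sets were called, these 3 included, while 4492 had an unadjusted p under 0.05. Within the 18 lines Rrm2 had a slope of 0.41 ± 0.17 (SE; limma, unadjusted p = 0.0257, adjusted p = 0.42), and no other gene of the 43 had an unadjusted p under 0.05. With the mouse as a fixed block, 6546 of all 45035 probe sets had an unadjusted p under 0.05 from limma, and 1068 were called. Of the 43 genes 6 had such a p, a similar share, with slopes below 0: Ccnb2 (-0.53), Mki67, Cenpf, Kif11, Kif20a and Bub1b. None of the 43 was called (limma, smallest adjusted p = 0.127, for Ccnb2). Only differences between lines of 1 mouse count in that fit. The widest in Cdkn1a was 6.20 in PPT-5193 against 9.68 in ASC-5193, so this pair weighs most in these slopes. A fixed-block fit without this pair was not run.

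The mean of 11 other p53 targets gave a second comparator that does not use Cdkn1a. These were Mdm2, Ccng1, Sesn2, Trp53inp1, Zmat3, Phlda3, Perp, Eda2r, Btg2, Aen and Plk2. Perp had the largest spread of them (SD 2.65, followed by Eda2r with 1.52) and a slope of -0.08 on Cdkn1a. Whether the mean measures p53 activity was not tested. Slopes on it were below 0 for 40 of the 43 genes, with a median of -0.15 per unit of the mean, against 0.00 over all probe sets. Again 0 genes were called, against 0.18% of the 45015 probe sets, and 4 genes had an unadjusted p under 0.05, against 13.1% of all probe sets. These were Cdc25b (-0.56 ± 0.21 (SE), p = 0.0143), Pcna (-0.31 ± 0.13), Tpx2 (-0.36 ± 0.16) and E2f2 (-0.32 ± 0.15), with adjusted p from limma between 0.26 and 0.37. The sign of the median depended on PPT-5671, whose p53 target mean of 1.62 was the highest of the 23 lines, and on how the mouse entered the fit. Without this line the median slope was 0.01, 23 of 43 genes lay above 0 and 0 had an unadjusted p under 0.05. Without PPT-5748 as well it was 0.02, with 26 genes above 0. A fixed block for the mouse gave a median of 0.30, with 33 genes above 0.

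Slopes on the p53 target mean were also read for the marker lists. All 6 fibroblast markers and 4 of 5 mesenchymal markers had slopes below 0 with an unadjusted p under 0.05 (limma), with medians of -2.27 and -0.84, and all 6 epithelial markers had slopes above 0. None of them was called, and their part in the slopes of the 43 genes was not tested. ASC-5193, with the lowest p53 target mean (-1.04), also had the lowest mean of the epithelial markers (-6.41). PPT-5671, with the highest p53 target mean (1.62), had an epithelial mean of -0.06. Over the 23 lines the p53 target mean had r = -0.19 and rho = -0.09 with the mean of the 43 genes, and r = -0.02 without PPT-5671 and ASC-5193, the lines farthest from its median.

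**Figure D5:**
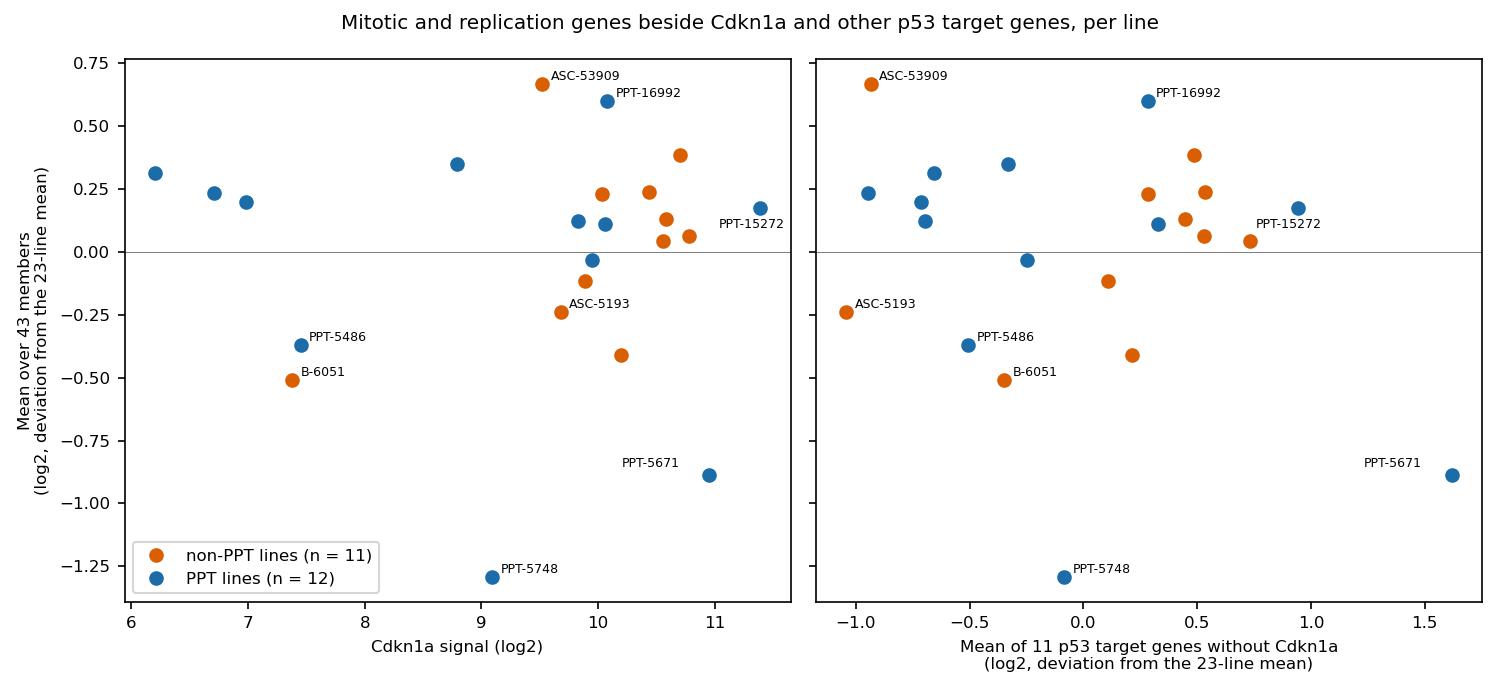
Mean deviation of the 43 genes (vertical axis, log2) against the Cdkn1a signal (left, log2) and against the mean deviation of 11 other p53 target genes (right, log2), 1 point per line, non-PPT lines in orange and PPT lines in blue. Points left of the gap in Cdkn1a lie between -0.51 and 0.31, and PPT-5671 stands alone at the right end of the p53 target mean (1.62).

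For 6 lines a p53 R172H allele is listed. The mean of the 43 genes was 0.31 in PPT-5193, 0.23 in PPT-3107, 0.20 in PPT-6051, -0.24 in ASC-5193, -0.37 in PPT-5486 and -0.51 in B-6051, which are places 19, 17, 15, 6, 5 and 3 from the lowest of the 23. ASC-5193 was the only one of these 6 with a Cdkn1a signal above the gap (9.68), whereas PPT-5193, with the same alleles listed, had 6.20. The mean of the other p53 targets lay below 0 in all 6, from -1.04 in ASC-5193, the lowest of the 23 lines, to -0.35 in B-6051. It also lay below 0 in lines with no such allele listed, among them ASC-53909 (-0.93) and PPT-3250 (-0.70). The genotype is not in the labels, so it was used to describe single lines and not to form groups.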

How the data were processed

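RNA of 23 murine PDAC cell lines was hybridised to 1 Affymetrix Mouse Genome 430 2.0 array each. The authors deposited log2 signals per probe set. The submitters' processing notes name RMA, whereas the methods describe variance stabilisation (VSN) before log2 transformation, and their versions were not given in the sources used here. After 64 control probe sets were left out, 45037 were analysed: 34945 were annotated with a single symbol, 932 with more than 1 and 9160 with no symbol. The brightest probe set with 1 symbol stood for a gene. Ccnb1 and Trp53 were not analysed here.

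Lines were compared with limma 3.58.1 (R 4.3.3) and Benjamini-Hochberg adjustment over all probe sets at 0.05, by name prefix and on Cdkn1a and p53 targets with the mouse as random block (duplicateCorrelation), and between mice with a moderated F-test. The scripts were tested on simulated data. Pairing came from the mouse number: deviations of lines of 1 mouse correlated with a median r of 0.42 over 15 pairs (-0.15 to 0.65), against -0.09 for other pairs. Drug sensitivity and genotype are not in the labels, so no groups were formed from them. An allele shared by the listed lines is not reported here. Members and lists were chosen with earlier results of these data known. Any member could be named, with the members of smallest p in each comparison, the 10 other genes of highest and of lowest r with the member mean, and the genes of the lists. Alternatives were the block, repeated normalization, array centring, a filter on dim probe sets, the choice of probe set, variance trend, each mouse left out, and, chosen after seeing the data, leaving out PPT-5748 and PPT-5671. Python 3.11.15 with numpy 2.4.6, scipy 1.17.1 and matplotlib 3.10.9 gave descriptions and plots. The number of arrays limits the precision.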

Additional observations from a re-analysis of the deposited data

Results flagged for a closer look

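The 43 genes and their 3 means (all, mitosis and replication) were read in both mice with 4 lines, which gave 92 sets of 4 values. In 8 of them, all of single genes, 1 line lay far from the other 3, by more than Dixon's limit for 4 values, which chance exceeds in about 1 of 20 groups. In mouse 15272, B-152727 was low for 3 spindle genes, with signals of 7.94 for Aurka (the other lines 8.94 to 9.01), 8.48 for Bub1 (9.44 to 9.59) and 8.07 for Tpx2 (8.89 to 8.94). PUL-15272 was low for Tyms, at 3.14 (4.01 to 4.18), where the probe set is dim. In mouse 53631, HEP2-53631 was low for Top2a, at 10.14 (10.78 to 10.91), for Ttk, at 7.16 (7.89 to 8.02), and for Birc5, at 10.15 (10.79 to 10.80). B-53631 was low for Cdc25b, at 6.28 (7.42 to 7.62).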

How the results depend on the processing

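No member was called by origin, by Cdkn1a or by p53 targets under any alternative run. With the mouse as a fixed replicate block, the origin median was -0.36 with 8 members at an unadjusted p under 0.05 and Mcm2 at -0.023, the Cdkn1a median -0.13 with 6 members and Pcna at 0.00796, and the p53 target median 0.30 with 1 member and slopes of 0.15 for Pcna, 0.75 for Tpx2 and 0.0202 for E2f2. Without any replicate block the origin fit had 1 such member, Mcm2. Leaving out PPT-5748 and PPT-5671, an alternative chosen after seeing the data, gave 6 such members by origin, 1 on p53 targets and a median pairwise r of 0.49. With all lines and 1 mean per mouse that r was 0.80. In the mouse comparison 1 member was called with only bright probe sets, against 1748 of 22518 probe sets. With the most variable probe set per gene 1 member was called, against 1322 of all 45037 probe sets. On Cdkn1a, 1 member had an unadjusted p under 0.05 with the most variable probe set and 1 within the 18 lines, where Aurka had a slope of 0.19. On p53 targets there were 1 with centred arrays, 2 with the most variable probe set and 0 without the 2 lines farthest from the median. The cause of these shifts was not tested.

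Leaving out 1 mouse at a time, the origin median ran from -0.06 to 0.16 with 0 to 1 members at an unadjusted p under 0.05, the Cdkn1a median from -0.04 to 0.03 with 0 to 2, and the p53 target median from -0.22 to 0.01 with 0 to 4. In the mouse comparison 0 to 1 members were called and 2 to 9 had an unadjusted p under 0.05 from the F-test. Over all 45037 probe sets 312 to 1392 were called and 6573 to 8230 had such a p.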
